A study of Mus musculus with 2 samples.

Results

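The cells described here are the neurosphere cells of the mouse glioma line GL261 that carried at least 1 unique molecular identifier (UMI, a tag that marks 1 captured mRNA molecule) of Cxcl10. After mitochondrial and ribosomal protein genes were removed, 4276 neurosphere cells passed the filter on UMIs and genes per cell, and 146 of them (3.41%, exact 95% binomial interval 2.89 to 4.0%) held a Cxcl10 UMI. They are 146 of 9327 kept cells in both libraries. The remaining 4130 cells, called Cxcl10-negative below, served as the comparison. The series holds 1 single-cell library of GL261 cells grown attached in medium with serum, and 1 of cells grown as free-floating neurospheres for 12 days after EGF (20 ng/ml), FGF (20 ng/ml) and B-27 were added. GL261 is a glioma line from C57BL/6 mice, here a single culture of each kind with no host tissue. The labels call it an astrocytoma. Of 10 astrocyte genes followed, 8 had UMIs in the kept neurosphere cells and 6 had at least 200. Among the 10, Gfap had 1 UMI in the Cxcl10-positive cells and 26 in the others, and Aqp4 had none. The labels give trypsin for both cultures, followed by trituration through ever smaller tips for the neurospheres. Freezing with DMSO and shipping followed for both. For the neurospheres the paper names centrifugation and trituration and does not mention trypsin. There is 1 library per condition, so cells are not replicates, no test was run, and every interval covers counting error only. The membership rule used Cxcl10 itself, so its levels, and the other genes of the same cells, are given as a description.

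Cxcl10 encodes a secreted chemokine that attracts activated T cells and natural killer cells through the receptor Cxcr3. Its gene is switched on both by interferon signaling and by NF-kB, the pathway downstream of TNF, interleukin 1 and Toll-like receptors. Interferon-stimulated genes such as Rsad2 and the Ifit family restrict viral replication, while Ccl2 and Ccl20, which attract monocytes and Ccr6-bearing lymphocytes, are widely used as NF-kB target genes.

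The 250 bases before the transcription start of 4 genes, taken from RefSeq promoters on GRCm38.p6, are shown because the cells below differ in which of the genes accompanies Cxcl10. Capitals mark matches, on either strand, to 1 of 2 motifs. The interferon-stimulated response element was searched as GAAA, any 2 bases and GAAA again, and the NF-kB element as GGGA, any 4 bases and CC.
Cxcl10 (chr5:92348890-92349139, minus strand): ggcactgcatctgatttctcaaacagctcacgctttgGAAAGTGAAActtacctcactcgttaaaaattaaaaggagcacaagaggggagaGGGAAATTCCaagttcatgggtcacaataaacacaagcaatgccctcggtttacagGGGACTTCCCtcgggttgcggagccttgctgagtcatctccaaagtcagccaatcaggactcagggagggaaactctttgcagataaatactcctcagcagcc
Rsad2 (chr12:26456453-26456702, minus strand): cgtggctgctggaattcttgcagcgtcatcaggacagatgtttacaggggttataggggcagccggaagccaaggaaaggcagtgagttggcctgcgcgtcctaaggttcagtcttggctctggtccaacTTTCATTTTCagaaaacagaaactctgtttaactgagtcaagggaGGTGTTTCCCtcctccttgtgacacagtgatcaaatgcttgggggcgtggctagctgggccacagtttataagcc
Ifit3 (chr19:34583279-34583528, plus strand): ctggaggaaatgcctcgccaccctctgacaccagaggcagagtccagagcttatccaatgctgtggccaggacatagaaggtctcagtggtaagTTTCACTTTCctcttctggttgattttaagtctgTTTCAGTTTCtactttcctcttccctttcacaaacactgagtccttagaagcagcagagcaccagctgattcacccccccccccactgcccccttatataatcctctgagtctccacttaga
Ccl20 (chr1:83116516-83116765, plus strand): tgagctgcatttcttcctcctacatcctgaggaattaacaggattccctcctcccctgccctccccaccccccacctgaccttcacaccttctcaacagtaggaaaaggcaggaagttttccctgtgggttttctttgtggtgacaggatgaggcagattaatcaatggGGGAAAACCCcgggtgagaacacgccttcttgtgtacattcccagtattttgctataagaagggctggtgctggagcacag
The Cxcl10 sequence held 1 interferon-type match, 213 to 204 bases before the start, and 2 NF-kB-type matches, at 159 to 150 and at 103 to 94 bases. The latter reads as a match on both strands. Rsad2 held 1 match of each kind, Ifit3 held 2 interferon-type matches and none of the other kind, and Ccl20 held a single NF-kB-type match. Among promoters searched but not printed, Ifit1 held 2, Gbp2 held 1 and Isg15 held 3 interferon-type matches. Ifit2 held 1 NF-kB-type match and no interferon-type match, and Cmpk2 and Lcn2 held neither. The letters thus did not sort the genes cleanly. Over the promoters of 27025 genes, 3.46% held the interferon-type letters and 19.7% the NF-kB-type letters within this window. Of the 45 interferon-stimulated genes followed below, the letters stood in 6 of the 16 matched genes (37.5%) that were over 2-fold higher in Cxcl10-positive cells and in 7 of the 18 matched genes (38.9%) that were not. A match is a match of letters and was not tested as a binding site.

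The label was checked against 5 markers. Cxcl10 (GRCm38, chromosome 5, 92346638 to 92348889, minus strand) defined the cells. Rsad2 (chromosome 12, 26442746 to 26456452, minus strand), Ccl2 (chromosome 11, 82035571 to 82037453, plus strand) and Ccl20 (chromosome 1, 83116766 to 83119167, plus strand) were each higher in Cxcl10-positive cells. Lcn2 (chromosome 2, 32384633 to 32388252, minus strand), which encodes the iron-siderophore-binding protein lipocalin 2, was not when all positive cells were summed. It stood at 14.2 CPM (counts scaled to a total of 1000000 UMIs) in Cxcl10-positive and 15.2 CPM in Cxcl10-negative cells. By Cxcl10 number it was at 6.08 CPM in cells with 1 UMI, 24.4 CPM with 2 to 9 and 26.4 CPM with 10 or more. Its log2 ratio ran from −0.32 to 0.72 over the alternative settings given at the end. A larger share of the positive cells held an Lcn2 UMI (13 of 146 against 44 of 4130), but 946 of the 987 Lcn2 UMIs lay in negative cells, up to 214 in a single cell against at most 10 in a positive cell. Cxcl10 is high by definition and checks nothing. Of the other 4 markers the label holds for Ccl2, Ccl20 and Rsad2, while the level of Lcn2 had no stable direction. GL261 is a single line, and of 22 immune cell markers 18 had no UMI in the positive cells, Ptprc, Aif1, Tyrobp, Itgam and Csf1r among them. The summed level of the 22 markers was 12.8 CPM in positive and 8.35 CPM in negative cells, mostly Cd68 (21 UMIs in positive cells) and Cd74 (11 UMIs).

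Cxcl10 was held very unevenly by the cells that had it. The 146 cells carried 1600 Cxcl10 UMIs, from 1 to 231 per cell with a median of 1. The 10 cells with the most carried 1124 of them (70.25%). By number, 85 cells (58.2%) had 1 UMI, 39 had 2 to 9 UMIs, and 22 cells (15.1%) had 10 or more. Those 22 cells held 86.5% of all Cxcl10 UMIs, and the 85 cells with 1 UMI held 5.31%. The limit of 10 UMIs was chosen after the counts were seen. The cells just inside the membership threshold, with 1 UMI, averaged 51.7 CPM of Cxcl10, and the cells just outside it had none.

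Detection followed the depth of a cell. Cxcl10-positive cells had a median of 16738 UMIs and 4828 genes per cell, against 13042 UMIs and 4292 genes in negative cells. With all cells ordered by depth into 4 groups of 1069, the positive share was 1.78%, 2.06%, 4.02% and 5.8% from the shallowest to the deepest. Cells with 10 or more Cxcl10 UMIs numbered 4, 2, 8 and 8 in these groups. With each cell thinned to 5000 UMIs, which leaves out 80 shallower cells (1 of them positive), the expected positive share was 1.76%. No cell type known to lack Cxcl10 was present as a measure of free RNA. Among 675 barcodes removed by the cell filter, whose median mitochondrial share was 87.0% and whose median depth over all genes was 1111 UMIs, 8 (1.19%, interval 0.513 to 2.32%) held a Cxcl10 UMI. These barcodes were far shallower than the kept cells, so their share is not a background level for them, and the part of free RNA in the 85 cells with 1 UMI was not tested. The median mitochondrial share of kept cells was 3.68% in positive and 3.98% in negative cells. Of 12 barcodes found in both libraries, 1 was a Cxcl10-positive neurosphere cell, and it had under 10 Cxcl10 UMIs.

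**Figure D1:**
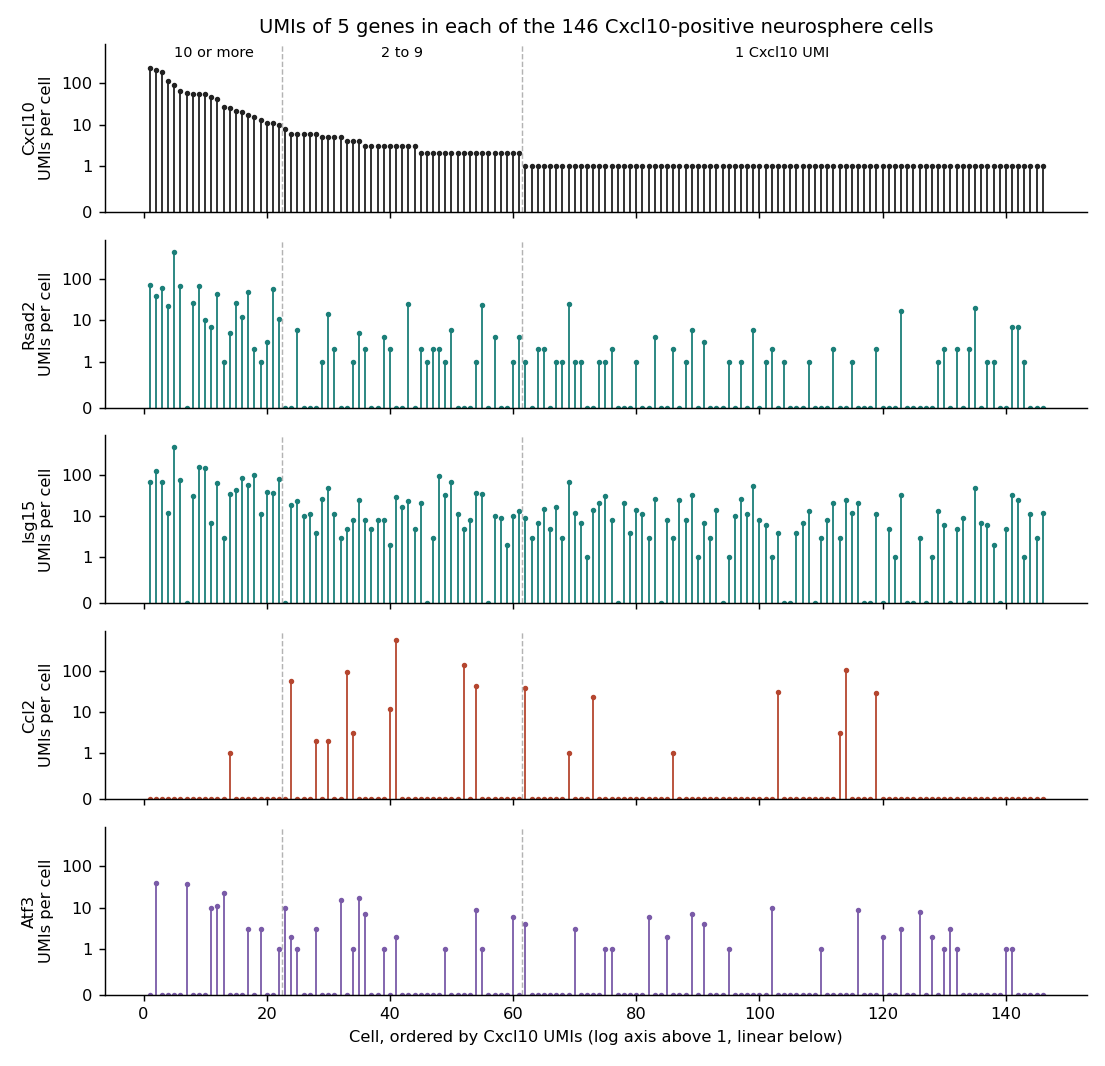
UMIs per cell of Cxcl10, Rsad2, Isg15, Ccl2 and Atf3 (y axes, logarithmic above 1 UMI) in the 146 Cxcl10-positive cells, ordered by Cxcl10 (x axis), with dashed lines at the limits between 10 or more, 2 to 9 and 1 Cxcl10 UMI. Rsad2 and Isg15 were tallest in the 22 cells at the left, where Ccl2 had 1 UMI in all, and the tall Ccl2 lines stood among cells with 1 to 6 Cxcl10 UMIs.

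The cells with the most Cxcl10 were cells with high levels of interferon-stimulated genes. In the 22 cells with 10 or more Cxcl10 UMIs, Rsad2 (viperin, an antiviral enzyme) ranged from 0 to 456 UMIs per cell with a median of 24, and 21 of the 22 had at least 1. In the 4130 negative cells the median was 0 and the highest value 42. As a summed level, Rsad2 stood at 2507 CPM in the 22 cells, 133 CPM in cells with 2 to 9 Cxcl10 UMIs, 81.5 CPM in cells with 1 and 34.6 CPM in negative cells. The order of Rsad2 levels was thus the order of the Cxcl10 UMIs. Isg15, a ubiquitin-like protein that is conjugated to other proteins during interferon responses, had a median of 61 UMIs in the 22 cells, 10 in cells with 2 to 9, 7 in cells with 1 and 2 in negative cells. Its summed levels were 4081, 795, 532 and 319 CPM in the same order. Ifit1, which binds viral RNA caps, reached 1156 CPM in the 22 cells against 36.4 CPM in negative cells.

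Single cells differed within this high group. The cell with the most Cxcl10 (231 UMIs) had 73 Rsad2, 17 Ifit1 and 69 Isg15 UMIs. The cell with the most Rsad2 (456 UMIs) also had 90 Cxcl10, 126 Ifit1, 138 Ifit3 and 461 Isg15 UMIs, and it was the only kept neurosphere cell with Ifnb1, which encodes interferon beta (2 UMIs). A cell with 189 Cxcl10 UMIs and only 6602 UMIs in all held 84 Ifit3 and 26 Oasl1 UMIs, and 3 of the 4 Il6 UMIs of the kept neurosphere cells. Stress genes were found in some of these cells. Of the 22, 7 had 3 or more Atf3 UMIs, and 4 of the 7 also had 3 or more Rsad2 UMIs. A cell with 59 Cxcl10 UMIs had no Rsad2, Ifit1 or Isg15 UMI, and instead 38 UMIs of Atf3, 62 of Ddit3 and 56 of Nupr1, transcription regulators induced by cellular stress. A cell with 27 Cxcl10 UMIs was similar, with 1 Rsad2, 23 Atf3 and 27 Ddit3 UMIs. The cell with 215 Cxcl10 UMIs carried both sets, with 38 Rsad2 and 40 Atf3 UMIs.

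Over all 11171 genes with at least 200 UMIs in the kept cells, 159 genes (1.42%) were over 2-fold higher and 234 (2.09%) over 2-fold lower in the 146 Cxcl10-positive cells. Among 45 interferon-stimulated genes measured at that depth, 20 were over 2-fold higher and none was over 2-fold lower. Their median log2 ratio was 0.89, against −0.01 for all genes, and 44 of the 45 were above 0. Ifit2 stood at 60.0 CPM against 3.79 CPM (log2 ratio 3.99, interval 3.70 to 4.28) and Rsad2 at 446 CPM against 34.6 CPM (3.69, 3.59 to 3.79). Ifit3 (3.30), Ifit3b (3.20), Cmpk2 (3.07), Ifit1 (2.76) and Zbp1 (2.08), a sensor of Z-form nucleic acid, followed. Irf9 (0.03), a DNA-binding factor of the interferon response, was close to the negative cells, while Irf7 (1.26), the factor that amplifies interferon production, was over 2-fold higher. In the cells with 1 Cxcl10 UMI Irf7 was at 14.0 CPM, near the 13.3 CPM of negative cells, and 41 of its 92 UMIs in positive cells lay in the 22 cells with the most Cxcl10. Detection at equal depth gave the same order, as Rsad2 was expected in 33.3% of positive and 13.5% of negative cells thinned to 5000 UMIs, against 54.8% and 28.6% unthinned.

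The guanylate-binding and immunity-related GTPases, which attack the vacuoles of intracellular microbes and respond strongly to interferon gamma, were also higher. Of 9 measured genes 6 were over 2-fold higher and the others were above 0, with a median of 1.51. Ifi47, 1 of the 6, reached the minimum of UMIs over the kept cells only through positive cells. Of its 240 UMIs, 83 lay in positive and 157 in negative cells. That minimum therefore favors its call, and the count and median that include it. Iigp1 stood at 63.2 CPM against 4.75 CPM (3.73, 3.46 to 4.0), Ifi47 at 28.8 against 2.53 CPM (3.51), Gbp2 at 45.1 against 5.08 CPM (3.15) and Igtp at 72.5 against 17.6 CPM (2.04). Irgm1 (0.81), Gbp7 (0.64) and Gbp6 (0.55) were the members below 2-fold.

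Genes of MHC class I antigen presentation, which displays peptides to cytotoxic T cells, were above 0 in all 18 measured genes with a smaller median of 0.62, and 5 were over 2-fold higher. The 5 were H2-Q4 (1.40), the immunoproteasome subunits Psmb9 (1.35) and Psmb8 (1.32), the class I transactivator Nlrc5 (1.14) and the peptide transporter subunit Tap1 (1.08). Without the 22 cells with the most Cxcl10, Psmb9 (0.74), Psmb8 (0.94), Nlrc5 (0.52) and Tap1 (0.60) were inside 2-fold. The light chain B2m was at 796 CPM against 668 CPM (0.25). Among checkpoint ligands and feedback inhibitors, Socs1, which blocks JAK signaling, was over 2-fold higher (1.08, and 0.52 without the 22 cells), Socs2 over 2-fold lower (−1.04, interval −2.50 to 0.10), and the PD-1 ligand Cd274 had 18 UMIs in 8 positive cells against 59 UMIs in the negative cells, under the count minimum. The receptors and kinases for interferons, which the cell needs to respond, had none of 8 genes past 2-fold (median 0.05), with Ifnar1 at 0.06, Ifnar2 at 0.02 and Ifngr1 at 0.01.

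**Figure D2:**
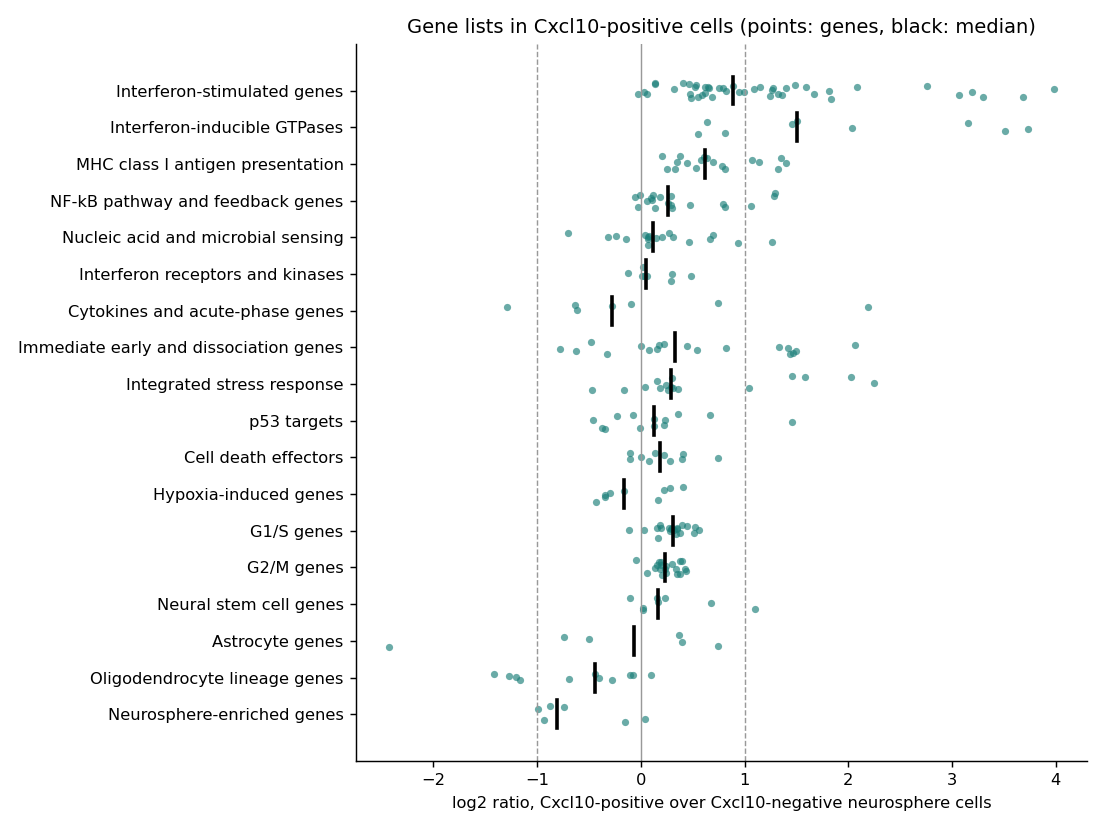
Log2 ratio of Cxcl10-positive over Cxcl10-negative neurosphere cells (x axis) for each gene with at least 200 UMIs in 18 gene lists (rows), with a black line at each list's median and dashed lines at 2-fold. Interferon-stimulated genes, their GTPases and MHC class I genes lay to the right of 0, with medians of 0.89, 1.51 and 0.62, and oligodendrocyte lineage and neurosphere-enriched genes lay to the left, with medians of −0.44 and −0.81.

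These ratios came largely from the 22 cells with the most Cxcl10. All comparisons by Cxcl10 number share the same negative cells and are given side by side. In the 22 cells, 771 genes (6.9% of those tested) were over 2-fold higher and 900 (8.06%) over 2-fold lower. There, 39 of the 45 interferon-stimulated genes, 9 of the 9 GTPases and 15 of the 18 MHC class I genes were over 2-fold higher. Their medians were 2.28, 3.23 and 1.67. The 9 GTPases include Ifi47, which reached the count minimum only through positive cells and had 63 UMIs in the 22 cells. In cells with 2 to 9 Cxcl10 UMIs (2.36% of genes higher and 6.46% lower), 18 interferon-stimulated genes were over 2-fold higher and the median was 0.59. In cells with 1 UMI (0.868% higher and 3.04% lower), 5 were, with a median of 0.36, and 4 of the 9 GTPases were, with a median of 0.97. Without the 22 cells, the median of the interferon-stimulated genes in positive cells was 0.44 and Rsad2 stood at 1.51, Ifit2 at 2.24, Ifit3 at 1.53, Ifit1 at 1.35 and Cmpk2 at 1.03. Among the GTPases, Gbp2 stood at 2.29, Iigp1 at 2.15 and Igtp at 1.19 without these cells.

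Counted per cell, the summed level of the interferon-stimulated gene list had a median of 16574 CPM in the 22 cells, 4765 CPM in cells with 2 to 9 Cxcl10 UMIs, 3709 CPM in cells with 1 and 2974 CPM in negative cells. The level that 5% of negative cells exceeded, 7880 CPM, was exceeded by 17 of the 22 cells, 11 of the 39 and 10 of the 85. The ranges overlapped in every group, since the lowest of the 22 cells was at 2219 CPM and the highest negative cell at 25245 CPM. Read from the other side, 9 of the 10 neurosphere cells with 30 or more Rsad2 UMIs were Cxcl10-positive, all 9 with 10 or more Cxcl10 UMIs. Of the 36 cells with 10 or more Rsad2 UMIs, 21 were Cxcl10-positive and 15 were not. Of 1260 cells with any Rsad2, 80 (6.35%) were Cxcl10-positive.

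**Figure D3:**
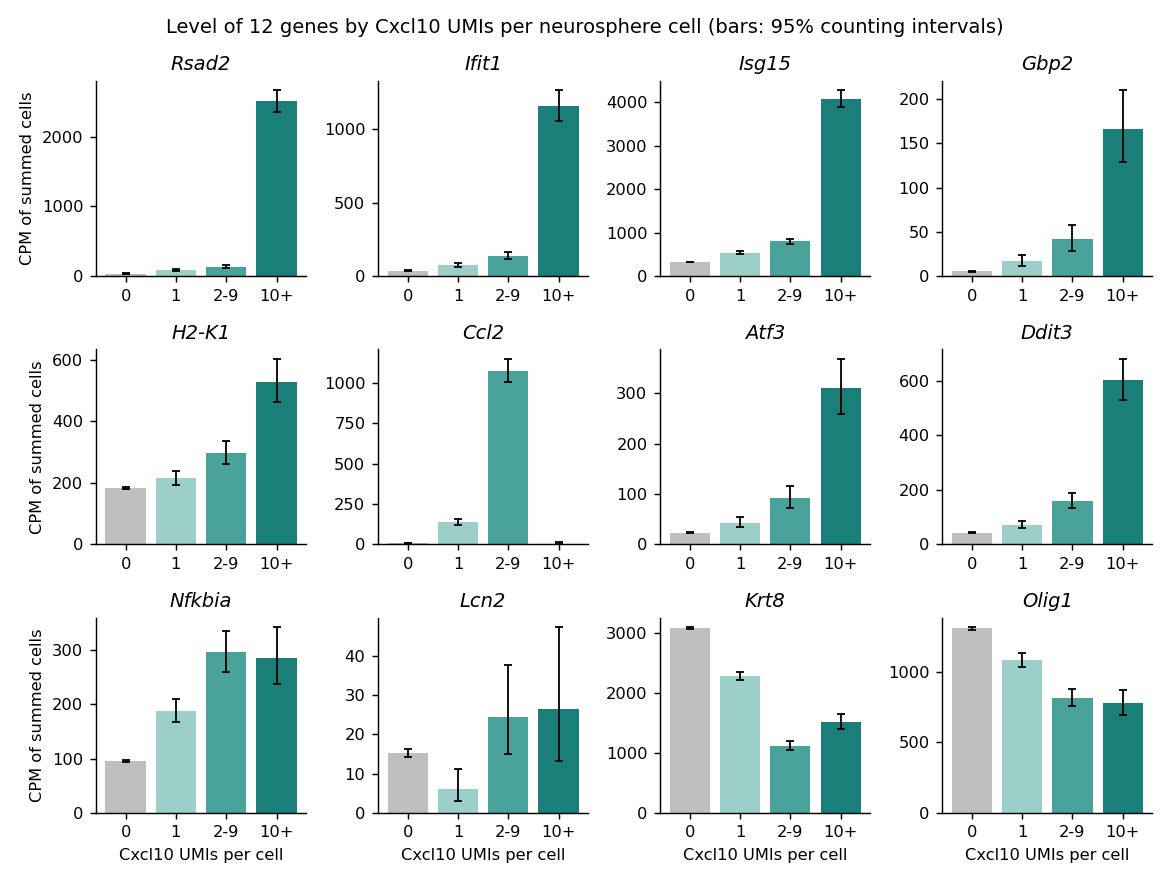
Level of 12 genes (y axis, CPM of UMIs summed over cells, starting at 0) in neurosphere cells with 0, 1, 2 to 9 and 10 or more Cxcl10 UMIs (x axis; 4130, 85, 39 and 22 cells), with exact 95% Poisson intervals. Rsad2, Ifit1, Isg15, Gbp2, H2-K1, Atf3 and Ddit3 were highest in the last group, Ccl2 in cells with 2 to 9 UMIs, and Krt8 and Olig1 were highest in negative cells.

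Few members had high Ccl2 counts, and none of these had a high Rsad2 count. The summed level of Ccl2 was the most raised of any gene by the naming rule. It was 387 CPM in positive against 7.48 CPM in negative cells (log2 ratio 5.69, interval 5.53 to 5.85). Only 18 of the 146 cells (12.3%), however, held a Ccl2 UMI, against 52 of 4130 (1.26%). One cell, with 3 Cxcl10 UMIs, held 540 of the 1114 Ccl2 UMIs. With the top cell left out on both sides, the log2 ratio was 5.19. By Cxcl10 number, Ccl2 was at 2.40 CPM in the 22 cells with 10 or more (1 UMI), 1078 CPM in cells with 2 to 9, 139 CPM in cells with 1 and 7.48 CPM in negative cells. The Ccl2-rich cells were therefore found among cells with few Cxcl10 UMIs. Of the 146 members, 36 had 3 or more Rsad2 UMIs, 13 had 3 or more Ccl2 UMIs, and none had both. With counts this small few cells with both would be expected, and a separation of the 2 genes was not tested. At 1 UMI the genes did overlap, since 9 of the 18 members with Ccl2 also held Rsad2, against 71 of the 128 without Ccl2, at 128 and 500 CPM. Among the 4130 negative cells 24 had 3 or more Ccl2 UMIs, 190 had 3 or more Rsad2 UMIs, and 1 had both. Of these 13 cells, 7 had 2 to 9 Cxcl10 UMIs, 6 had 1, and the next highest Ccl2 counts after 540 were 135, 104 and 91 UMIs, in cells with 2, 1 and 4 Cxcl10 UMIs and no Rsad2. Positive cells with Ccl2 still had more Isg15 than negative cells (787 against 319 CPM). Of the 23 neurosphere cells with 10 or more Ccl2 UMIs, 11 were Cxcl10-positive and 12 were not.

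The other chemokines were rare and often came from single cells. Cxcl2, a neutrophil attractant, had 113 UMIs in positive and 3 in negative cells, and 105 of them lay in 1 cell with 1 Cxcl10, 31 Ccl2 and 13 Ccl20 UMIs. Ccl20 had 39 UMIs in 9 positive cells and 94 in 23 negative cells, which is 13.5 against 1.51 CPM (3.16, interval 2.58 to 3.71). Ccl5, a T cell attractant induced by both pathways, had 38 UMIs in 10 positive cells against 84 in 20 negative cells (3.28, 2.69 to 3.85), and 4 of the 10 were among the 22 cells with the most Cxcl10. These genes were under the count minimum of 200 UMIs. Ccl7, a neighbor of Ccl2 on chromosome 11, had 19 UMIs in 4 positive cells and 29 UMIs in negative cells. Ccl25 (66.6 against 75.2 CPM, log2 ratio −0.17) and Ccl27a (−0.27), the only other ligands over the minimum, were present in many cells of both groups. Cxcl9, which binds the same receptor as Cxcl10, had no UMI in positive cells and 3 in negative cells, and Cxcr3, the receptor itself, had 0 and 2. Interferon ligands had UMIs of 3 genes, Ifnb1 (2 UMIs, both in a positive cell), Ifnab (1 UMI in a negative cell) and Ifnz (4 in positive and 91 in negative cells).

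Of 19 measured genes of the NF-kB pathway, 3 were over 2-fold higher and none lower, with a median of 0.26. Of the 3, Bcl3 reached the count minimum only through positive cells, since 193 of its 215 UMIs lay in negative cells. By Cxcl10 number, 2 of the 19 were over 2-fold higher in cells with 1 UMI, 5 in cells with 2 to 9 and 3 in cells with 10 or more, with medians of 0.12, 0.40 and 0.35. Over all 146 members the 3 were Nfkbia, the inhibitor that NF-kB induces to end its own activity (233 against 95.6 CPM, 1.29, interval 1.17 to 1.40), Bcl3 (1.30) and the p100 subunit Nfkb2 (1.06, and 0.996 without its richest cells). Tnfaip3, another feedback inhibitor, was at 0.80, and the subunits Nfkb1 (−0.03) and Rel (0.48) were within 2-fold. Nfkbia was at 188 CPM in cells with 1 Cxcl10 UMI, 296 CPM with 2 to 9 and 286 CPM with 10 or more. Its levels in the last 2 groups were thus close, where Rsad2 stood at 133 and 2507 CPM. The interferon regulatory factor Irf1 was the only one of 18 sensing and signaling genes over 2-fold higher (1.27, and 0.99 without the 22 cells). Among 7 measured cytokine genes, the macrophage growth factor Csf1 was over 2-fold higher (19.8 against 4.32 CPM, 2.20, and 1.40 without its richest cells) and Il18 over 2-fold lower (−1.29, and −0.91 with negative cells weighted by depth).

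Stress and immediate early genes were raised in part. Of 16 integrated stress response genes, which respond to amino acid shortage and unfolded protein, 5 were over 2-fold higher and the median was 0.29. These were Nupr1 (41.3 against 8.70 CPM, 2.25), Ddit3 (174 against 42.6 CPM, 2.03), Slc7a11 (1.58), Gdf15 (1.45) and Ppp1r15a (1.04, and 0.83 without the 22 cells), while the central factor Atf4 (0.04) and its targets Asns (0.19) and Chac1 (−0.17) were not. A single cell held 56 of the 119 Nupr1 UMIs, and without the 22 cells with the most Cxcl10 Nupr1 stood at 1.07 and Ddit3 at 1.25. Of 18 immediate early genes 6 were over 2-fold higher, with a median of 0.33. They were Atf3 (95.8 against 22.9 CPM, 2.06), Junb (1.5), Klf4 (1.47, and 0.96 without its richest cells), Ier3 (1.44), Fosl1 (1.41) and Klf6 (1.33). Atf3 stood at 1.38 without the 22 cells. Fos (−0.48), Fosb (−0.62) and Btg2 (−0.78), which also respond to dissociation, were lower in positive cells. Of the 146 cells, 24 had 3 or more Atf3 UMIs, 8 of them with 3 or more Rsad2 UMIs, and 83 cells had fewer than 3 UMIs of each of Rsad2, Ccl2 and Atf3. The culture, the dissociation and the freezing were the same for all these cells, and their part in the levels was not tested.

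The 15 highest genes by the naming rule also held Tm4sf1, a 4-span membrane protein (171 against 37.7 CPM, 2.18, interval 2.04 to 2.32), and Gm4951 (2.32), which belongs to no list. Isg20, an interferon-induced RNA exonuclease (15.6 against 2.11 CPM, 2.89), Sp110, a nuclear body protein (2.83), and Tm6sf1 (2.79) were among them with fewer than 200 UMIs. Tm4sf1 was at 97.9 CPM in cells with 1 Cxcl10 UMI, 289 CPM with 2 to 9 and 228 CPM with 10 or more, so it was above the negative cells in every group. Cebpd, a transcription factor of the acute-phase response, showed a flat pattern of 130, 137 and 108 CPM in the same groups, against 35.5 CPM in negative cells.

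Some myelin genes were lower in Cxcl10-positive cells. Of 11 oligodendrocyte lineage genes none was over 2-fold higher and 4 were over 2-fold lower, with a median of −0.44. Among these were the myelin genes Mbp (52.4 against 127 CPM, −1.28, interval −1.52 to −1.04), Mog (−1.21) and Cnp (−1.17), whereas the lineage factors Olig1 (−0.44), Olig2 (−0.40) and Sox10 (−0.08) were within 2-fold. With negative cells weighted to the depth of the positive cells, Mbp stood at −0.92 and Cnp at −0.99, inside 2-fold. The 5 lowest genes by the naming rule were Mucl2 (3.47 against 24.1 CPM, −2.79, with a UMI in 2.05% of positive and 2.35% of negative cells), Fa2h (−1.94), Omg (−1.84), Rnf43 (−1.76) and Lsamp (−1.60). Fa2h makes the hydroxylated fatty acids of myelin and Omg encodes oligodendrocyte myelin glycoprotein. The 6 genes that mark the neurosphere culture against the adherent one had a median of −0.81 with none over 2-fold in either direction, among them Dll3 (−0.99), Wnt6 (−0.93) and the keratin Krt8 (1840 against 3080 CPM, −0.74). That list was chosen from these 2 libraries, so its direction is no independent evidence. Neural stem cell genes were near the negative cells (median 0.16), with Nes at 0.02 and Sox2 at 0.16, and of 8 genes the Notch target Hes1 was over 2-fold higher (1.10), and at 0.66 without the 22 cells with the most Cxcl10. Hes5, another Notch target, stood at 0.68 and moved from −2.36 to 1.84 over the alternatives, so it has no stable direction here.

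Where the positive cells lay among all neurosphere cells was described with clusters computed after 60 genes of the interferon, NF-kB and chemokine lists had been taken out of the 2000 variable genes. The positive share ran from 0 of 255 cells in a cluster led by Mbp and Lsamp, which allows a share of up to 1.18% by a limit of 3 counts and 1.44% by the exact interval, to 19 of 147 cells (12.9%, interval 7.96 to 19.4%) in a cluster led by Nppb and Cox6a2. A cluster led by Wnt7b and Prss56 held 28 positive cells of 291 (9.62%), more than any other by number. The 5 leading genes of the Nppb cluster also included Ccl2, Nupr1 and Cxcl10 itself. Median depth was 8553 UMIs in the Mbp cluster, 9262 in the Nppb cluster and 22113 in the Wnt7b cluster. With cells thinned to 5000 UMIs the expected shares were 8.87% in the Nppb cluster and 4.29% in the Wnt7b cluster. The 22 cells with the most Cxcl10 were not gathered in 1 cluster, since 5 lay in the Nppb cluster, 5 in the cluster led by Aatk, 4 in the Wnt7b cluster and 8 in 4 others. Of the 30 nearest cells of a positive cell in the same space, 10.8% were positive on average, against 2.76% for negative cells and 3.41% overall. For the cells with 10 or more Cxcl10 UMIs the share was 15.2%, and 29.8% when the list genes were kept in. The lists include Cxcl10 itself, so the 29.8% partly reflects the rule that chose the cells.

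**Figure D4:**
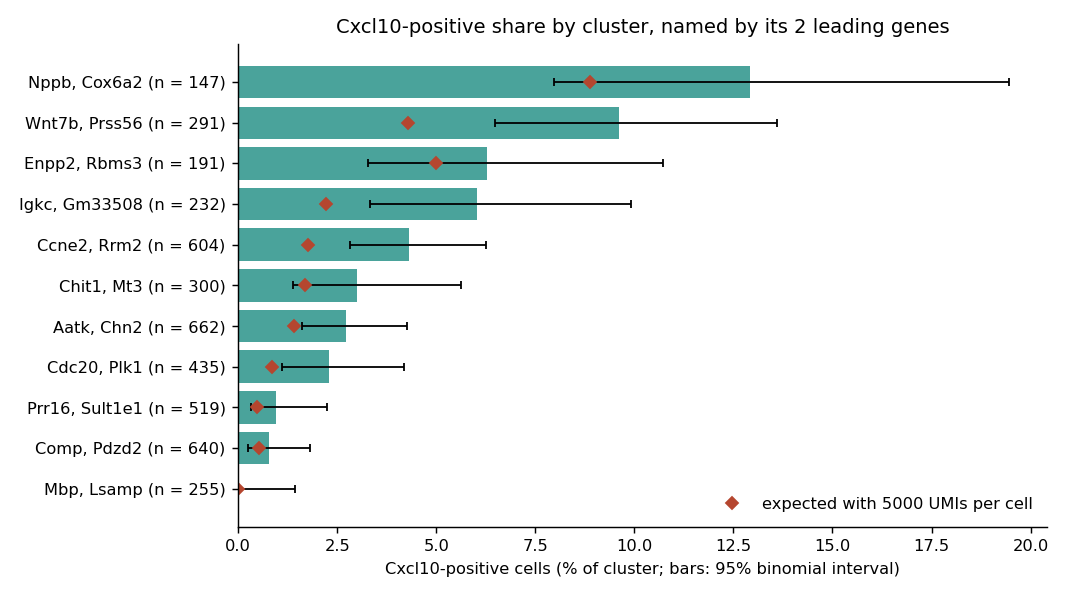
Share of Cxcl10-positive cells (x axis, percent of the cluster) in 11 neurosphere clusters made without interferon, NF-kB and chemokine list genes, each named by its 2 leading genes, with exact binomial intervals. Diamonds give the share expected with 5000 UMIs per cell. The Nppb cluster was highest at 12.9% and 8.87%, and the Mbp cluster had no positive cell.

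The adherent library had far more Cxcl10-positive cells, and in them fewer interferon-stimulated genes passed 2-fold. There, 1728 of 5051 cells were positive (34.2%, interval 32.9 to 35.5%, and 27.1% when thinned to 5000 UMIs), with a median of 2 and at most 171 Cxcl10 UMIs per cell, and the 10 highest cells held 9.56% of the Cxcl10 UMIs. Of 713 adherent barcodes removed by the filter, with a median depth of 833 UMIs, 51 (7.15%) held Cxcl10, and the part of free RNA in the adherent share was not tested. Of 10194 genes, 11 (0.108%) were over 2-fold higher in positive than in negative adherent cells, and 1 (0.00981%) over 2-fold lower. Of 52 interferon-stimulated genes measured in the adherent library, 5 were over 2-fold higher, the most raised being Oasl1 (190 against 21 UMIs, 3.79), which had too few UMIs for the call in neurospheres (37 against 45 UMIs, 4.15). Of the 45 measured in both libraries, 4 were over 2-fold higher in adherent positive cells, against 20 in neurospheres. The 4 were Rsad2 (449 against 122 CPM, 1.88), Ifit1 (1.44), Ifit2 (1.35) and Cmpk2 (1.24), and all 4 were among the 20, which is 20% of the neurosphere genes and 100% of the adherent ones. The log2 ratio was larger in neurospheres for 44 of the 45 genes and for 8 of the 8 GTPases measured in both. The level in the cells compared differed as well, since the list summed to 14376 CPM in Cxcl10-negative adherent cells and 3358 CPM in Cxcl10-negative neurosphere cells. In the 339 adherent cells with 10 or more Cxcl10 UMIs (0.383% of genes higher and 0.638% lower), 12 of 52 interferon-stimulated genes were over 2-fold higher, with a median of 0.48. Stress genes differed too, as Ddit3 was at −0.07 and Atf3 at 0.17 in adherent positive cells. With 1 library of each culture, the culture and the library cannot be told apart, and the difference between them was not tested.

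**Figure D5:**
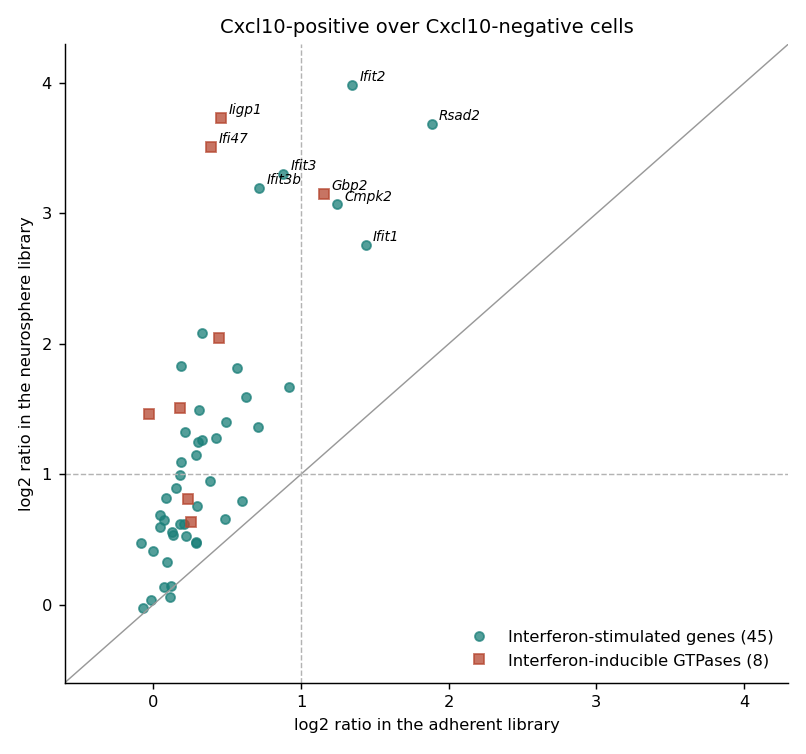
Log2 ratio of Cxcl10-positive over Cxcl10-negative cells in the adherent library (x axis) and in the neurosphere library (y axis) for 45 interferon-stimulated genes (circles) and 8 interferon-inducible GTPases (squares) with at least 200 UMIs in both. The solid line marks equal ratios and dashed lines mark 2-fold; 44 circles and all 8 squares lay above the solid line.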

How the data were processed

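The authors deposited 1 matrix of UMI counts for each library, not normalized, and the submitters' processing notes name Cell Ranger 7.0.1 and mm10. Whether reads in introns were counted is not given in the sources used here. From these counts, 13 mitochondrial (mt-) and 101 ribosomal protein genes (Rps, Rpl) were removed. Neurosphere cells with at least 1000 UMIs and 2250 genes were kept (4276 of 4951 cells, 64943938 UMIs), and adherent cells with at least 1000 UMIs and 1250 genes (5051 cells). No doublet caller was run, and cells over the 95th percentile of UMIs were left out as an alternative.

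UMIs were summed over Cxcl10-positive and Cxcl10-negative cells and given as CPM of the genes left. A gene was called by size, over 2-fold, among genes with at least 200 UMIs over the kept cells, with Cxcl10 left out. Exact 95% intervals were conditional for log2 ratios, Poisson for CPM and Clopper-Pearson for shares, a count of 0 was given a limit of 3 counts, and thinning was computed as its exact expectation. The ratio and thinning steps were tested on simulated data. Sums and intervals used Python 3.11.15, numpy 2.4.6, scipy 1.17.1 and pandas 2.3.3. Clusters and nearest cells came from Seurat 5.3.0 under R 4.3.3 with 18 principal components and a resolution of 1.0, and TMM scaling from edgeR 4.0.16 served as an alternative. Of 32285 gene identifiers, 32235 matched the GRCm38 annotation. Promoters came from RefSeq, with chromosome 18 left out of the shares.

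Named genes were the 5 markers, chemokines, their receptors and interferons, the 5 highest, 2 lowest and 2 most abundant genes of every other list, the 15 highest genes with at least 20 UMIs and a UMI in 10% of positive cells, and the 5 lowest with at least 50 expected UMIs, ranked by log2 ratio after adding 1 CPM. Isg15, Zbp1, Irf7, Irf9, Gbp6, Gbp7, Tnfaip3, Rel, Nfkb1, Asns, Fos, Fosl1, Mog, Cebpd, Cenpe and the single cells were chosen after their values were seen. Some genes of the lists are not reported here. The members and the 23 lists were chosen with earlier results of these data known.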

Additional observations from a re-analysis of the deposited data

Results flagged for a closer look

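Cxcl10 UMIs also appeared in data the comparisons did not use. Of the 675 neurosphere barcodes removed by the cell filter, 8 (1.19%) held Cxcl10, at a median depth of 1111 UMIs over all 675. They carried 56 Cxcl10 UMIs in all, with 27 in a single barcode and 1 UMI in each of 5.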

How the results depend on the processing

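No paired analysis was possible because the labels give no replicate numbers and each condition has 1 library; for the same reason no replicate could be left out. With at least 2 Cxcl10 UMIs required, 61 cells remained positive, the genes past 2-fold numbered 325 (higher) and 558 (lower), and median log2 ratios were 1.28 for interferon-stimulated genes, 1.08 for MHC class I genes and −1.23 for neurosphere-enriched genes. With each cell thinned to 5000 UMIs, 73.7 positive cells were expected. The number of genes called moved with the count minimum, to 426 higher and 571 lower at 50 UMIs and 47 higher and 69 lower at 1000 UMIs. Genes lower numbered 150 with negative cells weighted to the depth of the positive cells and 359 by the mean of per-cell CPM. The remaining alternatives were chosen after seeing the data. With the cell richest in each gene left out on both sides, 104 genes were higher and 423 lower, and by construction this lowers genes with few UMIs in positive cells. Without the cells with 10 or more Cxcl10 UMIs, 104 genes were higher and the medians were 0.44 for interferon-stimulated and 0.31 for MHC class I genes. The other 130 values of counts and medians stayed within 1.5 times the count or within the median's order-statistic interval. Of 1960 values of single named genes, 1715 stayed within the counting interval, 245 did not, and no gene over 2-fold as reported changed its sign, whereas Hes5 (0.68) reached −2.36 and Krt18 (0.04) reached −1.46; Ccl2 ran from 5.19 to 6.58 and Rsad2 from 1.51 to 4.75. Of the 146 members, 85 rest on 1 UMI.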

Other observations

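No proliferation gene of the lists passed 2-fold in the Cxcl10-positive neurosphere cells as a whole. Of 20 G1/S genes, which drive DNA replication, 19 were above 0, with a median log2 ratio of 0.31, and of 20 G2/M genes, which act in mitosis, 19 were above 0 with a median of 0.23. In the 22 cells with 10 or more Cxcl10 UMIs, the G1/S median was 0.00 with 10 of 20 genes above 0, and in cells with 1 UMI it was 0.40 with 20 of 20 above 0. The G2/M median was 0.32 with 19 of 20 above 0 in the 22 cells, where Cenpe (1.16) was over 2-fold higher, and 0.18 with 18 of 20 above 0 in cells with 1 UMI. Median depth was 16837 UMIs in the 22 cells and 15950 UMIs in cells with 1 UMI. Among 13 p53 targets only the kinase Plk2 was over 2-fold higher (1.45, and 0.93 without the 22 cells), and the median was 0.13. None of 10 cell death effectors (median 0.18) and none of 9 hypoxia-induced genes (median −0.16) passed 2-fold in either direction. Of 6 astrocyte genes, Aldh1l1 was over 2-fold lower (3 UMIs in positive cells, 1.04 against 5.59 CPM, log2 ratio −2.42), and the median was −0.07. The osteopontin gene Spp1 was at 38.9 CPM in positive and 9.02 CPM in negative cells (2.11), held by 16 of the 146 positive cells; it was named after its value was seen.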
